A study of Mus musculus with 12 samples.

Results

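The cytokine response of *Adam17*-KD cells was compared with that of control cells, gene by gene, as a difference between 2 log2 fold inductions. The comparison used all 12 libraries of the series, 3 in each of 4 groups, and covered the 14673 genes expressed highly enough to be tested among the 43269 named in the count table. The groups were *Adam17*-KD cells with cytokines, *Adam17*-KD cells left unstimulated, control cells with cytokines and control cells left unstimulated. All cells were of the MC38CEA line, derived from a mouse colon adenocarcinoma and carrying human carcinoembryonic antigen. Both genotypes had been electroporated with Cas9 mRNA and then guide RNA, against *Adam17* in the knockdown and against the jellyfish-derived reporter EGFP in the control. The cytokines were IL1β and IFNγ, at 10 ng/ml each for 6 h. The *Adam17*-KD cells were a mixed edited population and not a clone, and they still contained *Adam17* RNA. The labels call the replicates biological, but do not say whether each came from its own edit. If they are cultures of the same edited cells, the p-values cover only the spread between cultures.

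ADAM17 is a membrane metalloproteinase that sheds TNF, ligands of the EGF receptor such as amphiregulin, and several cytokine receptors. IL1β acts through MyD88 and NF-κB. IFNγ acts through short palindromic DNA elements called GAS and induces the transcription factor IRF1, whereas type I interferons act through a longer element called ISRE. Many interferon-stimulated genes answer to both routes. A fold induction depends on the level a gene starts from as well as on the level it reaches, so both are given beside it.

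The libraries held 13156871 to 25443307 counts. Levels are in CPM, counts scaled by edgeR to a common library total. *Adam17* stood at 57.1, 59.8 and 62.4 CPM in *Adam17*-KD cells with cytokines and at 49.7, 57.3 and 49.7 CPM in unstimulated *Adam17*-KD cells, against 93.8, 111 and 110 CPM in control cells with cytokines and 77, 91.8 and 94.4 CPM in unstimulated control cells. Every *Adam17*-KD library lay below every control library in its condition. The fall passed the edgeR test without cytokines (log2 -0.75, adjusted p = 0.0136) and with them (log2 -0.81, adjusted p = 0.0327), and the cytokine response of *Adam17* differed between genotypes by -0.07 ± 0.17 (log2 ± SE). Replicate 2 of the control cells with cytokines stood apart: its deviations from its group had an SD of 0.447 on the log2 scale, against 0.214 to 0.346 in the other libraries. It had 1500 CPM of the nuclear RNA *Malat1*, but *Malat1* was high in replicate 2 of every group. Replicate 2 had 1279 CPM in unstimulated control cells, and 932 and 1185 CPM in *Adam17*-KD cells with cytokines and unstimulated. Replicate 3 had 261 to 566 CPM and replicate 1 had 289 to 1233 CPM. The 1233 CPM were in unstimulated *Adam17*-KD cells, above replicate 2 of that group. The source was not tested. Of 15 epithelial markers 3 were expressed highly enough to be tested, and *Cldn3* had no count. The 3 were *Tjp1*, with 1187 to 1960 counts per library, *Muc1*, with at most 56, and *Esrp1*, with at most 33. Leukocyte markers summed to at most 35.2 CPM. *Cd3e* and *Cd52* had 0 counts, while *Cd14* had 177 to 702 counts per library, *Cd68* 22 to 83 and *Itgam* 15 to 97. The 14 fibroblast and endothelial markers, of which 6 were tested, summed to 715 to 924 CPM in *Adam17*-KD cells with cytokines and 872 to 1270 CPM in unstimulated *Adam17*-KD cells, against 262 to 608 CPM and 424 to 608 CPM in the matching control cells. Most of these counts came from *Col3a1*, with 2116 to 15491 per library, and *Col1a2*, with 885 to 4802. The endothelial *Pecam1*, *Cdh5*, *Kdr* and *Tek* had at most 4, 15, 6 and 3 counts. *Lum*, *Acta2*, *Tagln* and *Thy1* had at most 9, 6, 2 and 3. The part of these 14 markers in the results below was not tested.

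Most genes called for a cytokine response in either genotype were called in both, and no gene passed the test of a difference between the responses. The response passed the edgeR quasi-likelihood test (adjusted p under 0.05) for 1159 genes in *Adam17*-KD cells, 7.9% of those tested, with 934 higher and 225 lower with cytokines. In control cells it passed for 999 genes (6.81%), 844 higher and 155 lower. Both tests called 860 genes, which were 74.2% of the *Adam17*-KD calls and 86.1% of the control calls, and all 860 changed in the same direction. Of the 438 genes called in 1 genotype only, 35 had an unadjusted p under 0.05 for the difference between genotypes. Across the 14673 genes the responses, which share no library, had a Pearson r of 0.897, a Spearman rho of 0.64 and a slope of 0.969, as a description over genes that are not independent replicates. The plot of the responses shows this relation.

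**Figure D1:**
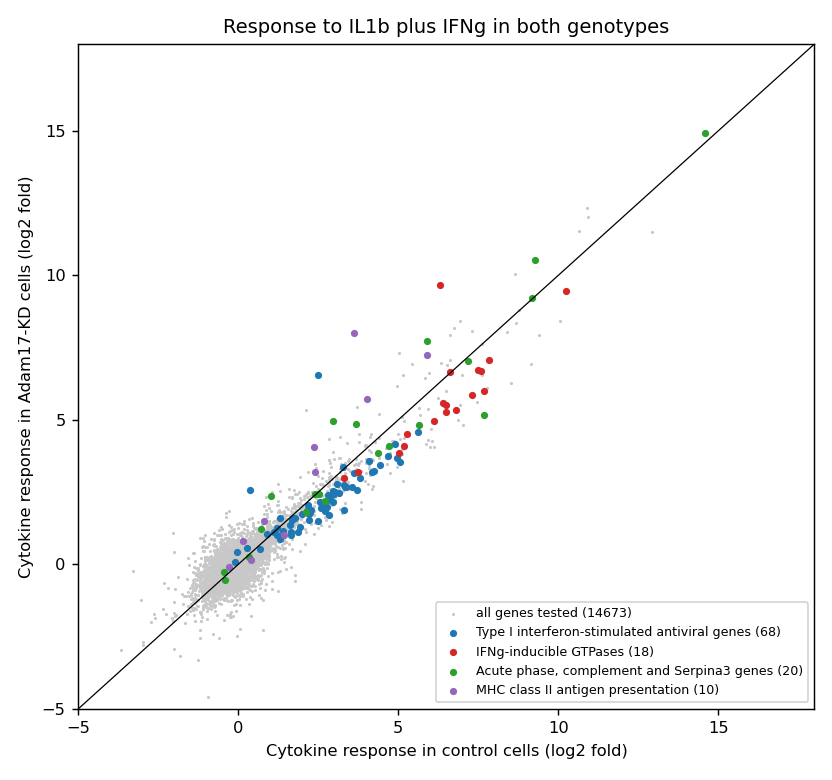
Log2 fold response to IL1β and IFNγ in *Adam17*-KD cells (vertical) against that in control cells (horizontal), for the 14673 genes tested, with the members of 4 lists in colour. The black line marks equal responses. Most GTPases and antiviral genes lie below it, while MHC class II genes lie mostly above it. Points past about 8 on either axis start near 0 counts, and their position depends on the prior count of the fit.

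The difference between the responses was called for 0 of 14673 genes by edgeR (0%). At an unadjusted p under 0.05 there were 222 genes, or 1.51%, of which 102 had the larger fold in *Adam17*-KD cells and 120 the smaller. That share is below the 5% that this threshold is set to pass when no gene differs, which does not show that no gene differs. The count was 368 with a replicate block and 148 to 403 with a library left out. The 403 came without replicate 3 of the unstimulated *Adam17*-KD cells, where the smallest adjusted p was 0.197 (edgeR). The limma-voom test also called 0 genes, DESeq2 called 1, *Iigp1* (log2 -1.71, adjusted p = 0.00973), and edgeR without a filter on low counts called 18, named below. The median SE of a difference was 0.28 on the log2 scale, and for 64.8% of genes the 95% interval lay inside -1 to 1, that is, within a 2-fold difference of the fold inductions in either direction. The other intervals reached past a 2-fold difference on at least 1 side.

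Genes were sorted by the average response over both genotypes, called for 1910 genes or 13% of those tested. The 656 genes called with an average log2 of at least 1 are termed induced, the 106 called with -1 or less repressed. Induced genes tended to start higher in *Adam17*-KD cells and to be induced by a smaller fold. Their median log2 difference of *Adam17*-KD over control was 0.35 unstimulated and 0.25 with cytokines, and the median difference of the responses was -0.14, with 402 of them (61.3%) below 0, against a median of 0.02 and 46.9% below 0 over all genes tested. Of these 656, 66 with a smaller and 16 with a larger fold in *Adam17*-KD cells had an unadjusted p under 0.05, against 120 and 102 of all 14673 genes. The median was -0.05 over the 332 genes with an average log2 of 1 to 2, -0.26 over the 212 at 2 to 4 and -0.54 over the 112 at 4 and over. The share below 0 was 55.7%, 67.9% and 65.2% in that order, so it did not keep growing. The median SE rose from 0.29 to 0.41 and 0.82. At 4 and over, the 10th and 90th percentiles of the difference were -1.69 and 1.40. The starting level, the induced level and the difference of the responses share libraries, so they are given side by side and are not independent. Without replicate 2 of the control cells with cytokines, the induced median was -0.11.

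Interferon-inducible GTPases, which attack the vacuoles of intracellular pathogens, made up the list with the most negative median difference. All 18 members tested rose with cytokines in both genotypes, against 7.9% (*Adam17*-KD) and 6.81% (control) of all genes called in either direction. Their median log2 difference between *Adam17*-KD and control cells was 1.19 unstimulated and 0.35 with cytokines, and the difference of the responses had a median of -0.84. It was below 0 for 16 of 18 (88.9%), against 46.9% of all genes and 61.3% of the induced genes. An unadjusted p under 0.05 was found for 11, where 1.51% of all genes had one. Of the 656 induced genes, 66 below and 16 above 0 had one. Unstimulated, 10 of 18 were called higher in *Adam17*-KD cells, against 0.47% of all genes called in either direction, and in 14 every *Adam17*-KD library lay above every control library, against 8.38% of all genes. With cytokines none was called, where 0.0341% of all genes were, and 3 were separated in that way, against 4.83% of all genes. Without replicate 2 of the control cells with cytokines the median was -0.74.

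*Iigp1* (mm10 chr18:60376027-60392634), an immunity-related GTPase, had the most negative difference of the GTPases. It stood at 649, 776 and 920 CPM in *Adam17*-KD cells with cytokines and at 9.91, 16.7 and 10.1 CPM in unstimulated *Adam17*-KD cells. In control cells it stood at 461, 652 and 602 CPM with cytokines and at 2.73, 2.35 and 3.26 CPM unstimulated. Unstimulated levels were separate, 4.37-fold higher in *Adam17*-KD cells (adjusted p = 0.00684, edgeR), whereas stimulated levels overlapped. The fold induction was 63.9 in *Adam17*-KD cells and 204 in control cells, a difference of -1.68 ± 0.31 on the log2 scale, with a 95% interval of -2.35 to -1.0.

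*Irgm2* (mm10 chr11:58199618-58222782) had 424, 454 and 433 CPM in *Adam17*-KD cells with cytokines and 32.3, 36.3 and 21.7 CPM in unstimulated *Adam17*-KD cells. Control cells had 387, 486 and 392 CPM with cytokines and 15.1, 12 and 12.1 CPM unstimulated. Both genotypes thus reached the same range from starting levels that did not overlap, and the difference of the responses was -1.15 ± 0.24 (95% interval -1.67 to -0.62). *Igtp*, which encodes Irgm3, averaged 2055 ± 264 CPM in *Adam17*-KD cells with cytokines and 45.0 ± 9.50 CPM unstimulated, against 1811 ± 317 CPM and 20.4 ± 2.07 CPM in control cells (SD, n = 3 each). Its difference was -0.96 ± 0.25. The annotated spans of *Igtp* and *Irgm2* overlap on the same strand, so their counts may not be independent. Similar values were found for *Ifi47* (-1.14 ± 0.27), *Tgtp2* (-0.79 ± 0.20) and the guanylate-binding protein gene *Gbp2* (-0.75 ± 0.23), whereas *Irgm1*, which restrains the other GTPases, had -0.53 ± 0.26 and starting levels of 111, 156 and 115 CPM in *Adam17*-KD cells, against 89.5, 111 and 75.4 CPM in control cells. How reads shared by near-identical members were counted is not given, so single *Gbp*, *Irgm* and *Tgtp* genes are uncertain.

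The start regions of 3 of these genes, of the antiviral gene *Ifit3* and of *Sod2*, which had the larger fold in *Adam17*-KD cells, are shown as examples of where the interferon elements lie. They were chosen with their matches known. They are RefSeq windows of GRCm38.p6, from 250 bases before to 50 after the annotated start, read 5′ to 3′ on the gene's strand. Capitals mark matches to the GAS letters TTCNNNGAA or the ISRE letters GAAANNGAAA on either strand, and a base could belong to both.
Irgm2, chr11:58214727-58215026, + strand: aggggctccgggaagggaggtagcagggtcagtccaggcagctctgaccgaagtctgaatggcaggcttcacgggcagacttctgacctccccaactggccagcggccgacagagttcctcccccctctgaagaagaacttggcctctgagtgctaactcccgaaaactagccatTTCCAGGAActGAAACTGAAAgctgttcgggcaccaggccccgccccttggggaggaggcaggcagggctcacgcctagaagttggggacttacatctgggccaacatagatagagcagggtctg
Igtp, chr11:58199306-58199605, + strand: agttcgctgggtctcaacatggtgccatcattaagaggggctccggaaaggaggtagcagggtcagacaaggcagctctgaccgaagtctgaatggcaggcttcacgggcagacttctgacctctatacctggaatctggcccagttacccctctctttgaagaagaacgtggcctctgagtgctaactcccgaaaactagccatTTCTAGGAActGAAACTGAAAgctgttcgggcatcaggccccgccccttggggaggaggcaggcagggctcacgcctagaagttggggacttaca
Gbp2, chr3:142620413-142620712, + strand: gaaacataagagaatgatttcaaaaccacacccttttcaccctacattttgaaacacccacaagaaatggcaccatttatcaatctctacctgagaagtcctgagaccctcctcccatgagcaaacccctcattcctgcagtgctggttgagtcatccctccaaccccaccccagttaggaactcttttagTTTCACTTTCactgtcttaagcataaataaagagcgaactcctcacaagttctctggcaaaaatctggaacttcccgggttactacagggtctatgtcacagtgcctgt
Ifit3, chr19:34583279-34583578, + strand: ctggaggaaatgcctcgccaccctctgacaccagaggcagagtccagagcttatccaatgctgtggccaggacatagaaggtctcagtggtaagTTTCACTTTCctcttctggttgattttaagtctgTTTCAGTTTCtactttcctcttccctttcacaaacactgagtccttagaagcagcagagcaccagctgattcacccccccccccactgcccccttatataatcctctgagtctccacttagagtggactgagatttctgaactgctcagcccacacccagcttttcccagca
Sod2, chr17:13007589-13007888, + strand: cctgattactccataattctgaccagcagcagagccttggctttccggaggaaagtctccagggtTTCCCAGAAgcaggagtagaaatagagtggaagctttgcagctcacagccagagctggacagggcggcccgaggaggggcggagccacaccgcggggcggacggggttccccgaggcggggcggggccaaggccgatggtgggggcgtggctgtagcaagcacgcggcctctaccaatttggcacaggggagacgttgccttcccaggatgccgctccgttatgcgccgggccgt
*Irgm2* and *Igtp* carried 1 GAS and 1 ISRE match next to each other, *Gbp2* carried 1 ISRE match, *Ifit3* carried 2, and *Sod2* carried 1 GAS match and no ISRE match. The other windows searched are given for both directions of the difference. *Ifi47* and *Cmpk2*, with the smaller fold in *Adam17*-KD cells, carried 0 matches to either, as did *Rpa3* and *H2-Aa*, with the larger fold. *Irf1*, with the smaller fold, carried 1 GAS match and no ISRE match in its first window. *Cxcl10*, with a positive difference, carried 1 ISRE match and no GAS match. Of all 27025 genes with such a window, 9.55% held a GAS match and 3.99% an ISRE match. Windows were at hand for 10 of the 18 GTPases and 53 of the 68 antiviral genes, fewer than 80%, so shares over the lists were not compared. A match is a description of the letters and not evidence of binding.

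Antiviral genes known mainly from the type I interferon response followed the GTPases. Of 68 tested, 65 rose in *Adam17*-KD and 64 in control cells, against 7.9% and 6.81% of all genes called in either direction. The median log2 difference of *Adam17*-KD over control was 0.77 unstimulated and 0.23 with cytokines. Unstimulated, 19 members were called higher, against 0.47% of all genes called in either direction. With cytokines none was called, where 0.0341% of all genes were. The difference of the responses had a median of -0.53. It was below 0 for 58 members (85.3%), against 46.9% of all genes and 61.3% of the induced genes. An unadjusted p under 0.05 was found for 28 members below and 2 above 0, where 1.51% of all genes had one. The median was -0.40 without replicate 2 of the control cells with cytokines.

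*Ifit3*, whose product binds foreign RNA together with its relative IFIT1, had 386, 416 and 379 CPM in *Adam17*-KD cells with cytokines and 24.7, 43.7 and 22.9 CPM in unstimulated *Adam17*-KD cells. Control cells had 278, 261 and 393 CPM with cytokines and 9.56, 9.23 and 11.3 CPM unstimulated. The starting level was called higher in *Adam17*-KD cells (3.03-fold, adjusted p = 0.0112, edgeR), and the induced levels overlapped. The fold induction was 12.9 in *Adam17*-KD cells and 30.9 in control cells, a difference of -1.26 ± 0.31. *Zbp1*, a sensor of Z-form nucleic acid, had a difference of -1.05 ± 0.28 with 752, 1046 and 928 CPM in *Adam17*-KD cells with cytokines, against 646, 707 and 586 CPM in control cells with cytokines. Its induced levels did not overlap, although the edgeR test with cytokines did not call the gene (adjusted p = 0.902).

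For the nucleotide kinase gene *Cmpk2* the replicates lay close together. Its levels were 180, 156 and 160 CPM in *Adam17*-KD cells with cytokines and 21.4, 22.9 and 19.0 CPM unstimulated, against 175, 151 and 169 CPM in control cells with cytokines and 13.5, 10.1 and 11.5 CPM unstimulated. The difference was -0.84 ± 0.18. The ubiquitin ligase gene *Dtx3l* (-0.88 ± 0.20), the ADP-ribosyltransferase gene *Parp14* (-1.02 ± 0.25), *Slfn8* (-1.16 ± 0.26) and *Oasl2* (-0.57 ± 0.17) had the same form, with a called higher start in *Adam17*-KD cells and no call with cytokines. *Ifit1* and *Oas1b*, which the study followed by RT-qPCR, had -0.54 ± 0.21 and -0.24 ± 0.32, and neither had a called starting level (adjusted p = 0.194 and 0.647, edgeR).

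**Figure D2:**
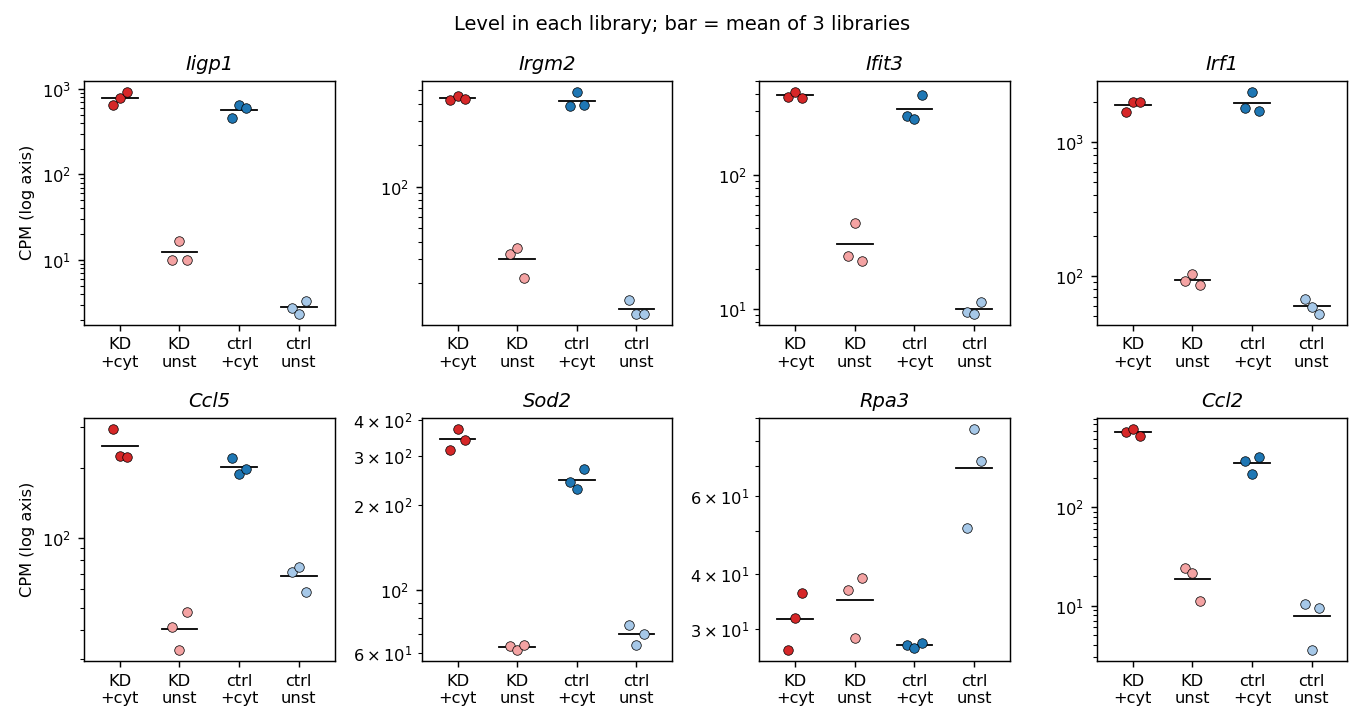
CPM on a log axis in each of the 12 libraries for 8 genes, by group from left to right: *Adam17*-KD with cytokines (KD +cyt), *Adam17*-KD unstimulated (KD unst), control with cytokines (ctrl +cyt) and control unstimulated (ctrl unst). Bars are means of 3 libraries. *Iigp1*, *Irgm2*, *Ifit3* and *Irf1* start higher in *Adam17*-KD cells and end in overlapping ranges, *Ccl5* and *Rpa3* start lower, *Sod2* ends higher, and *Ccl2* is higher at both ends.

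Genes of interferon signalling had a small median difference, with the most negative values in 4 transcription factor genes, none of which passed the test. Over the 28 genes for interferon receptors, JAKs, STATs, IRFs and SOCS proteins the median difference was -0.11, with a range of -0.21 to -0.08 with a library left out. It was below 0 for 20 of them (71.4%), against 46.9% of all genes and 61.3% of the induced genes. An unadjusted p under 0.05 was found for 4, all below 0, against 1.51% of all genes. Of the 656 induced genes, whose median was -0.14, 66 below and 16 above 0 had one. *Irf1*, the IFNγ-induced activator of many of the genes above, had 1680, 1995 and 1987 CPM in *Adam17*-KD cells with cytokines and 90.9, 103 and 84.9 CPM unstimulated. Control cells had 1803, 2351 and 1708 CPM with cytokines and 67.2, 58.3 and 52.3 CPM unstimulated. The starting levels did not overlap, yet the edgeR test did not call them (adjusted p = 0.113), and the difference of the responses was -0.70 ± 0.22. *Stat2* (-0.68 ± 0.25), *Irf7* (-0.49 ± 0.21) and *Irf9* (-0.41 ± 0.16) lay on the same side. Of these 3, only *Irf7* had a called higher start in *Adam17*-KD cells (log2 0.92, adjusted p = 0.0149, edgeR).

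Genes of MHC class I presentation had a smaller shift, and those of class II lay on the other side. Of 25 class I genes, 22 rose in each genotype, against 7.9% (*Adam17*-KD) and 6.81% (control) of all genes called in either direction. A difference below 0 was found for 18 (72%), against 46.9% of all genes and 61.3% of the induced genes. The class I median was -0.13, with a range of -0.26 to -0.08 with a library left out, where the induced genes had -0.14. *Tap1*, a subunit of the peptide transporter, had -0.44 ± 0.16, the nonclassical *H2-T10* had -0.73 ± 0.24, and the peptide-trimming *Erap1* had -0.31 ± 0.16. Of 10 class II genes tested, 8 rose in *Adam17*-KD cells and 4 in control cells, where 7.9% and 6.81% of all genes were called in either direction. Their median difference was 0.75, with 8 above 0, against 53.1% of all genes. An unadjusted p under 0.05 was found for 2, against 1.51% of all genes. *H2-Aa*, a chain of the class II molecule itself, was low throughout: 3.99, 10.4 and 3.26 CPM in *Adam17*-KD cells with cytokines, against 1.25, 0.91 and 0.728 CPM in control cells with cytokines, and at most 0.114 CPM in any unstimulated library. Its difference of 4.38 ± 1.49 therefore rests on a few counts at the start. *H2-DMb1*, which helps load class II peptides, gave the firmer value, with 23.2, 28 and 23.4 CPM in *Adam17*-KD cells with cytokines and 10.1, 15.4 and 16.6 CPM unstimulated, against 13.5, 14.0 and 17.9 CPM and 14.3, 11.9 and 15.1 CPM in control cells. It rose in *Adam17*-KD cells (log2 0.82, adjusted p = 0.016, edgeR) and was not called in control cells (log2 0.13), and the difference was 0.69 ± 0.28. For *H2-DMa*, the partner chain, it was 0.71 ± 0.41.

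*Nos2*, the inducible nitric oxide synthase, was nearly silent before stimulation. It had 733, 898 and 527 CPM in *Adam17*-KD cells with cytokines and 0.0533, 0.269 and 0.175 CPM in unstimulated *Adam17*-KD cells, against 506, 315 and 504 CPM in control cells with cytokines and 0.114, 0.365 and 0.215 CPM unstimulated. Every *Adam17*-KD library with cytokines lay above every control library with cytokines, the nearest pair being 527 and 506 CPM. The induced level was not called (log2 0.70, adjusted p = 0.633, edgeR). The difference of the responses was 1.09 ± 0.78, and its 95% interval of -0.58 to 2.76 includes 0. *Gch1*, which makes the tetrahydrobiopterin that nitric oxide synthase needs, had a difference of 0.59 ± 0.27.

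For the monocyte chemoattractants *Ccl2* and *Ccl7*, every *Adam17*-KD library lay above every control library in its condition, with cytokines and without. *Ccl2* had 586, 631 and 539 CPM in *Adam17*-KD cells with cytokines and 23.9, 21.4 and 11.1 CPM unstimulated, against 298, 220 and 323 CPM and 10.4, 3.49 and 9.36 CPM in control cells. Neither level was called, and the difference of the responses was -0.20 ± 0.45, which turned to 0.14 without replicate 2 of the unstimulated control cells. *Ccl7* had 39.8, 45.7 and 38.0 CPM in *Adam17*-KD cells with cytokines, against 14.4, 10.4 and 13.8 CPM in control cells with cytokines. It was 1 of 5 genes called with cytokines (3.19-fold, adjusted p = 0.0149, edgeR), while unstimulated it had 2.08, 2.10 and 1.27 CPM in *Adam17*-KD cells, against 1.21, 0.626 and 0.944 CPM in control cells, with no call. The difference was 0.75 ± 0.35, with an interval of -0.01 to 1.51.

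*Ccl5*, a chemoattractant of T cells, took the opposite course to the antiviral genes. It had 294, 225 and 223 CPM in *Adam17*-KD cells with cytokines and 41.3, 32.7 and 47.8 CPM unstimulated. Control cells had 220, 188 and 197 CPM with cytokines and 71.2, 74.9 and 58.5 CPM unstimulated. The *Adam17*-KD libraries lay below all control libraries before stimulation and above all of them after it, though neither level was called by edgeR (adjusted p = 0.0661 unstimulated). The fold induction was 6.09 in *Adam17*-KD cells and 2.96 in control cells, a difference of 1.04 ± 0.22 (95% interval 0.56 to 1.52). *Cxcl10*, an IFNγ-induced chemokine among the most abundant, had 0.36 ± 0.20. Over the 24 chemokines, interleukins and colony-stimulating factors tested the median was -0.08, with 13 below 0, and it turned to 0.09 without replicate 2 of the unstimulated control cells and to 0.10 without replicate 3 of the control cells with cytokines.

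Outside the interferon lists, the larger folds in *Adam17*-KD cells fell on genes of several roles. *Sod2*, the mitochondrial superoxide dismutase and an NF-κB target, had 313, 373 and 340 CPM in *Adam17*-KD cells with cytokines and 63.5, 61.3 and 64.2 CPM unstimulated, against 242, 228 and 268 CPM and 75.5, 64.0 and 69.9 CPM in control cells. Stimulated levels did not overlap, and the difference was 0.62 ± 0.16. *Cebpd*, a transcription factor of the acute phase response, had 0.85 ± 0.30 and the phospholipase gene *Pla2g16* had 0.55 ± 0.18. *Rpa3*, the small subunit of the single-strand DNA-binding protein RPA, had a course of its own, with 26.9, 31.8 and 36.3 CPM in *Adam17*-KD cells with cytokines and 36.7, 28.7 and 39.2 CPM unstimulated, against 27.7, 27.2 and 28 CPM in control cells with cytokines and 50.8, 85.1 and 72.0 CPM unstimulated. Only the unstimulated control libraries were high. *Rpa3* thus fell with cytokines in control cells (log2 -1.33, adjusted p = 0.00024, edgeR), had a response of -0.14 in *Adam17*-KD cells that was not called, and differed by 1.18 ± 0.26.

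The genes of the IL1 receptor and NF-κB pathway had a median difference as small as that of the interferon signalling genes. Of 32 tested, 16 rose in each genotype, against 7.9% (*Adam17*-KD) and 6.81% (control) of all genes called in either direction. The median was -0.12, with a range of -0.22 to 0.0069 with a library left out. Of the 32, 22 (68.8%) lay below 0, against 46.9% of all genes and 61.3% of the induced genes. None had an unadjusted p under 0.05, and 30 had an interval inside -1 to 1. *Irak2*, a kinase-like adaptor of the IL1 receptor, had -0.34 ± 0.22 and *Nfkbie*, an inhibitor of NF-κB, had -0.36 ± 0.19. The 32 NF-κB targets outside the pathway had a median of 0.05.

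Acute phase, complement and *Serpina3* genes had higher median levels in *Adam17*-KD cells in both conditions, and a median difference of the responses near 0. Over 20 tested genes the median log2 difference of *Adam17*-KD over control was 0.91 unstimulated and 0.95 with cytokines, and the median difference of the responses was -0.03, with 10 on each side. *Cp*, the copper carrier ceruloplasmin, had 21.5, 23.2 and 19.5 CPM in *Adam17*-KD cells with cytokines and 10.4, 10.6 and 6.42 CPM unstimulated, against 5.47, 5.54 and 6.65 CPM and 3.95, 2.97 and 3.95 CPM in control cells. It was called higher in *Adam17*-KD cells unstimulated (log2 1.33, adjusted p = 0.0149, edgeR) and with cytokines (log2 1.86, adjusted p = 0.0109), with a difference of 0.53 ± 0.30. The complement gene *C3* had 1.17 ± 0.71 and the siderophore-binding *Lcn2*, which was below 1 CPM at the start, had 2.00 ± 0.78. The protease inhibitor genes *Serpina3f* and *Serpina3i* and the ubiquitin-like modifier gene *Ubd* had 0 counts in every unstimulated library. Taken against a floor of 3 counts per library, *Serpina3f* was induced at least 1362-fold in *Adam17*-KD cells and at least 1208-fold in control cells, *Serpina3i* at least 64.4-fold and 30.6-fold, and *Ubd* at least 129-fold and 80.1-fold. Such bounds do not allow the 2 responses to be compared.

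**Figure D3:**
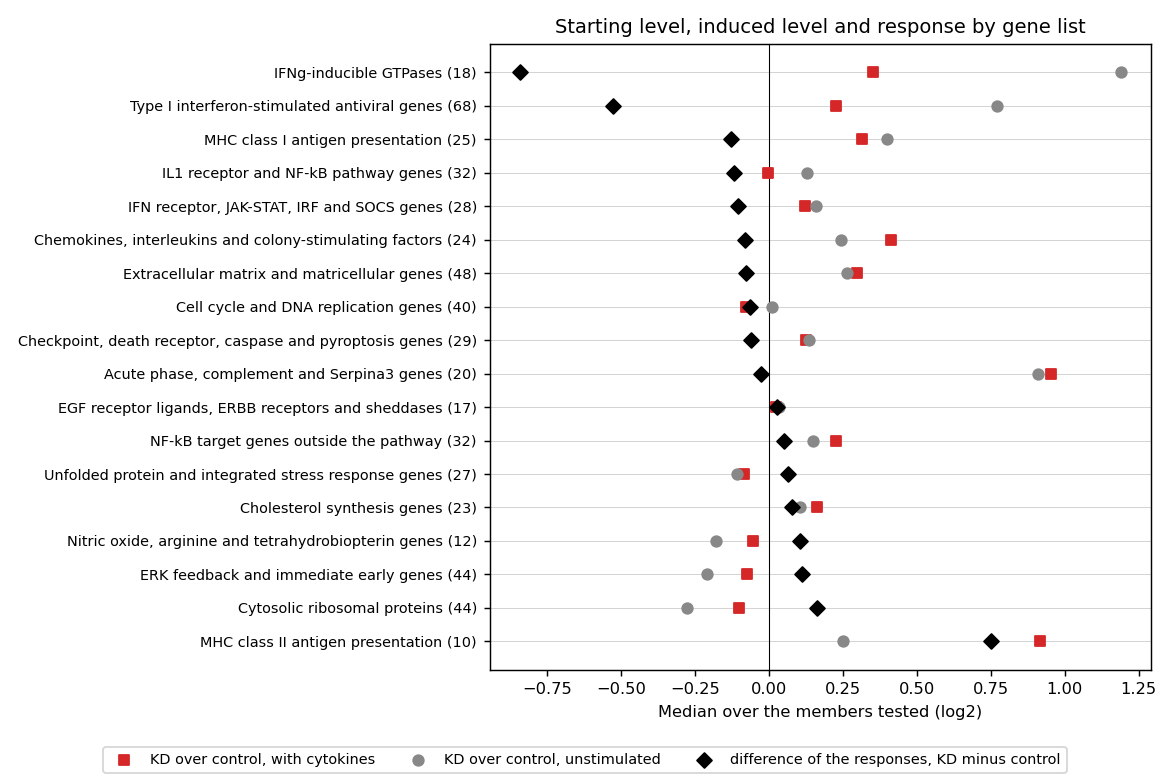
Median log2 values over the tested members of each list (number in brackets): *Adam17*-KD over control with cytokines (red squares), *Adam17*-KD over control unstimulated (grey circles) and the difference of the responses, *Adam17*-KD minus control (black diamonds). The starting medians are 1.19 for the GTPases, 0.77 for the antiviral genes and 0.91 for the acute phase genes, but the difference of the responses is -0.84, -0.53 and -0.03.

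Among lists with little cytokine response, the median of the ribosomal proteins was about as large as that of the induced genes, but above 0. The 44 ERK feedback and immediate early genes had a median difference of 0.11, with 30 above 0, against 53.1% of all genes. *Ier3*, an early response gene, was called lower in unstimulated *Adam17*-KD cells (log2 -0.81, adjusted p = 0.0192, edgeR) and differed by 0.32 ± 0.20. Among 17 EGF receptor ligands, ERBB receptors and sheddases the median was 0.03. *Areg*, the amphiregulin gene, had 4.10, 4.83 and 5.20 CPM in *Adam17*-KD cells with cytokines and 5.81, 5.33 and 8.17 CPM unstimulated, against 9.21, 8.04 and 12.4 CPM and 21.2, 13.1 and 20.9 CPM in control cells, and differed by 0.44 ± 0.35. Its *Adam17*-KD libraries were lower in both conditions, with a call unstimulated (log2 -1.51, adjusted p = 0.0136, edgeR). The sheddase gene *Adam10* had 0.03 ± 0.22. The 44 listed genes of cytosolic ribosomal proteins had a median of 0.16 (0.0077 to 0.28 with a library left out). Of them 36 lay above 0, against 53.1% of all genes, and none had an unadjusted p under 0.05. *Rpl30*, a ribosomal protein gene outside the list, had 0.49 ± 0.18. The reference genes *Eef2* and *Polr2b* had -0.04 ± 0.25 and -0.22 ± 0.20. Among the 106 repressed genes the median was -0.06, and 6 had an unadjusted p under 0.05, where 1.51% of all genes did. *Aqp5*, a water channel gene among the strongest falls, had 0.917, 0.604 and 1.09 CPM in *Adam17*-KD cells with cytokines and 4.21, 6.51 and 6.16 CPM unstimulated, against 0.297, 0.379 and 0.388 CPM and 3.26, 1.88 and 3.31 CPM in control cells.

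**Figure D4:**
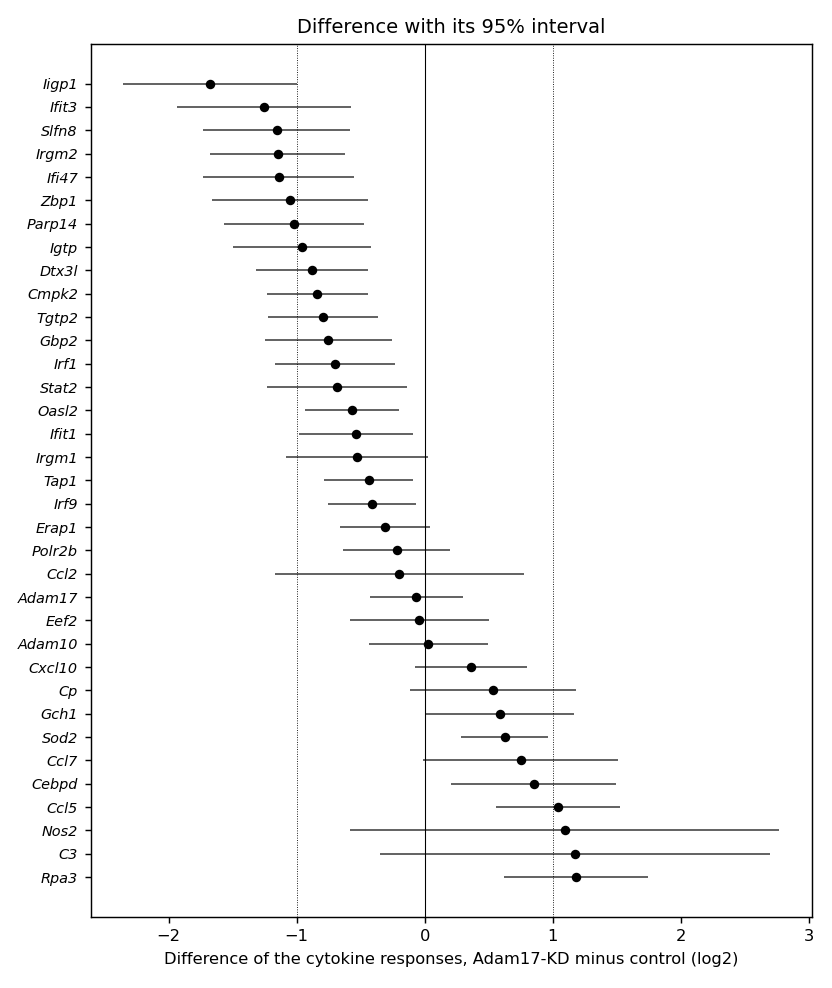
Difference of the cytokine responses, *Adam17*-KD minus control, on the log2 scale (points) with its 95% interval (lines) for 35 named genes, ordered by value. Dotted lines mark -1 and 1. The interval of *Iigp1* only just stays below -1, those of *Nos2* and *C3* span 0 widely, and those of *Adam17*, *Adam10* and *Eef2* are centred near 0.

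A smaller fold did not always come with a smaller increase in CPM, which is a relative measure. Measured as the increase in CPM, the response was larger in *Adam17*-KD cells for 458 of the 656 induced genes (69.8%), against 54.6% of all genes, and 240 induced genes had the smaller fold but the larger increase there. This held for 14 of the 18 GTPases and 36 of the 68 antiviral genes, and for 548 of all 14673 genes tested. *Gbp2* gained 6155 CPM in *Adam17*-KD cells and 4868 CPM in control cells, a difference of 1287 CPM with a combined SD of the 4 groups of 1154 CPM. *Iigp1* gained 769 and 569 CPM, a difference of 201 CPM with a combined SD of 168 CPM. Both had the smaller fold in *Adam17*-KD cells. *Irgm2* gained 407 CPM in *Adam17*-KD cells and 408 CPM in control cells, and *Cmpk2* gained 144 and 153 CPM. For *Ccl2* the increase was 567 CPM in *Adam17*-KD cells and 272 CPM in control cells with nearly equal folds of 31.2 and 35.8. The sign of the difference can therefore depend on the scale. For most named genes whose sign turned, the difference of the increases lay within the combined SD, and the increases were not tested.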

How the data were processed

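RNA of 12 cultures, 3 per group, was sequenced as poly(A)+ RNA from Ion Total RNA-Seq libraries. The deposited values were raw counts per gene, which the authors did not normalise. The submitters' processing notes name build mm10, and the aligner, counter, annotation and the handling of reads mapping to more than 1 gene are not given in the sources used here. The 2 deposited tables of the authors' own comparisons were not used. Lines whose names read as dates (2 lines, 0.00808% of counts) were left out.

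The analysis used edgeR 4.0.16 under R 4.3.3: filterByExpr on the 4 groups, TMM scaling, a quasi-likelihood fit with 1 mean per group (8 residual degrees of freedom) and F-tests of the contrasts, adjusted by Benjamini-Hochberg over all 14673 genes and called under 0.05. SEs and 95% intervals of the differences came from the same fit. The function was tested on simulated data. Alternatives were DESeq2 1.42.0, limma 3.58.1 (voom), RLE size factors, other filters, a replicate block and leaving out each library.

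Members, gene lists and tests were chosen with earlier results of these data known, and lists are described by counts and medians without a set test. Named were the genes the study followed, the 12 of smallest p in each direction with a mean of at least 20 counts, up to 4 members of smallest p and 3 of highest level per list, and the strongest responders. Some genes that met this rule are not reported here. Gene spans are from GENCODE M21 (mm10) and start regions from RefSeq.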

Additional observations from a re-analysis of the deposited data

How the results depend on the processing

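The count of genes called for the difference of the responses stayed at 0 with RLE size factors, a mean of at least 50 counts, limma-voom, the replicate block, an adjusted p under 0.10 and each library left out (0 to 0). It became 1 with DESeq2 (1 lower in *Adam17*-KD cells, *Iigp1*) and 18 in edgeR without a filter (2 higher, *Ccl5* and *Rpa3*, and 16 lower, namely *Gbp6*, *Gbp7*, *Gbp9*, *Gm12250*, *Gm4951*, *Ifi47*, *Ifit3*, *Igtp*, *Iigp1*, *Irgm2*, *Nubpl*, *Oas2*, *Parp14*, *Slfn2*, *Slfn8* and *Zbp1*). The cause was not tested. The correlation of the responses was 0.245 without a filter, when 29878 genes entered, and 0.837 to 0.890 with each library left out. Over those fits, the induced median ran from -0.20 to -0.08, and the calls from 853 to 1332 in *Adam17*-KD cells and from 806 to 1077 in control cells.

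On the linear scale, as the difference of the CPM increases, *Adam17*-KD minus control, the sign turned for *Iigp1* (200.7), *Igtp* (219), *Ifi47* (48.3), *Tgtp2* (55.9), *Gbp2* (1287), *Slfn8* (8.43), *Ifit3* (62.4), *Zbp1* (237.5), *Oasl2* (38.9), *Oas1b* (3.72), *Stat2* (16.7), *Irf7* (19.2), *Tap1* (48.9), *H2-T10* (0.327), *Erap1* (4.92), *Tlr3* (2.30), *Ido2* (3.33), *Ccl2* (294), *Cxcl10* (-254) and *Nfkbie* (2.46). Of these, only the differences of *Iigp1*, *Tgtp2*, *Gbp2*, *Zbp1*, *Irf7* and *Ccl2* were larger than the combined SD of the 4 groups. The rest lay within it. This SD describes the spread of single libraries and not the error of the group means. The sign on this scale was therefore not tested for any of these genes and is uncertain. With a library left out, the log2 difference ran from -0.52 to 0.14 for *Ccl2*, -0.15 to 0.0192 for *Adam17*, -0.12 to 0.14 for *Adam10* and -0.22 to 0.0779 for *Eef2*. That of *Adam10* was -0.00217 with RLE size factors and -0.00139 with DESeq2. With a library left out, the median of the GTPases ran from -1.07 to -0.70, that of the antiviral genes from -0.60 to -0.40 and that of the MHC class II genes from 0.51 to 1.16, while that of the chemokine list ran from -0.18 to 0.10, that of the acute phase list from -0.17 to 0.27 that of the EGF receptor list from -0.12 to 0.10, that of MHC class I from -0.26 to -0.08, that of interferon signalling from -0.21 to -0.08, that of the IL1 receptor and NF-κB pathway from -0.22 to 0.0069 and that of the ribosomal proteins from 0.0077 to 0.28.

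Same-numbered libraries deviated together (correlation over 0.1) in 12 of 18 pairs, and the 18 correlations ran from -0.249 to 0.487. Of 36 choices of the best partner among 3 libraries, 21 fell on the same number, more than an even spread over the 3 would give. A likeness by replicate number was thus present in part, and its source was not tested. As it did not hold in every pair, the planned permutation test of paired increases was not run, and the main fit has no replicate term. With the replicate block in edgeR 0 genes were called and the smallest adjusted p was 0.417. An unadjusted p under 0.05 was found for 368 genes with the block, against 222 without it.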

Other observations

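Some genes outside the groups above passed the response test in 1 genotype only, although the difference between the genotypes was not called for any of them by edgeR. *Ackr3*, a scavenger receptor for CXCL12, had 70.7, 80.5 and 71 CPM in *Adam17*-KD cells with cytokines and 85.9, 91.8 and 96.7 CPM unstimulated, against 57.9, 52.4 and 63 CPM and 101, 89.7 and 103 CPM in control cells. It fell with cytokines in control cells (log2 -0.76, adjusted p = 0.00041) and was not called in *Adam17*-KD cells (log2 -0.30), a difference of 0.46 ± 0.16. *Pomp*, a chaperone of proteasome assembly, rose in *Adam17*-KD cells (log2 0.77, adjusted p = 0.001) and was not called in control cells (log2 0.26), a difference of 0.51 ± 0.18. *Nol4* had 0.863, 0.845 and 1.32 CPM in *Adam17*-KD cells with cytokines and 3.52, 3.23 and 3.15 CPM unstimulated, against 2.73, 2.58 and 2.04 CPM and 2.50, 3.65 and 2.75 CPM in control cells. The *Adam17*-KD libraries with cytokines were the low ones, and the difference was -1.45 ± 0.38. *Pla1a*, a phospholipase gene, had 1.38 ± 0.42 at under 5 CPM in every library.

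Of the further members of the lists, *Tlr3* and *Ido2* followed the interferon-stimulated genes. *Tlr3*, the receptor for double-stranded RNA, was called higher in unstimulated *Adam17*-KD cells (log2 1.15, adjusted p = 0.0136, edgeR) and differed by -0.87 ± 0.24. *Ido2*, a tryptophan-degrading enzyme gene, differed by -1.18 ± 0.42. *Cd274*, which encodes PD-L1, had 256, 356 and 342 CPM in *Adam17*-KD cells with cytokines, against 286, 603 and 263 CPM in control cells with cytokines. The value of 603 belongs to the library that stood apart. *Cd274* differed by -0.54 ± 0.41 with that library and by -0.06 without it, and its unstimulated levels overlapped. *Il18bp*, the decoy receptor of IL18, lay on the other side with 23.8, 29.6 and 23.7 CPM in *Adam17*-KD cells with cytokines, against 15.5, 16.5 and 12.7 CPM in control cells with cytokines, and differed by 0.61 ± 0.30. *Nod2*, a sensor of bacterial muramyl dipeptide, differed by 1.53 ± 0.61 at a mean of 13 counts. It had 1.62, 1.75 and 1.47 CPM in *Adam17*-KD cells with cytokines and at most 0.951 CPM in any other library. That group may have carried it past the filter on low counts, so its difference is not independent of the filter.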
